A study of Mus musculus with 7 samples.

Results

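The genes described here are 5 inhibitors of cyclin-dependent kinases (CDKs), Cdkn1a, Cdkn1b, Cdkn2a, Cdkn2b and Cdkn2c, and 5 cyclins of the G1 phase, Ccnd1, Ccnd2, Ccnd3, Ccne1 and Ccne2. Every probe set of the array annotated to 1 of these 10 genes alone was taken, which gave 20 of the 22690 probe sets and 10 of 12393 named genes, 7 for the inhibitors and 13 for the cyclins. A probe set is a group of short probes that report 1 transcript or several transcripts of a gene. Signals came from 7 Affymetrix hybridisations of mouse embryonic fibroblasts (MEF). All the cells carried a loss of the tumour suppressor p53 (p53-/-), controls included. The p53-/- Dnmt1-/- cells, called p53-Dnmt1-null here, also lacked Dnmt1, the enzyme that copies DNA methylation onto new DNA strands. Their RNA was taken without treatment, at 24 h and at 48 h of trichostatin A (TSA, an inhibitor of histone deacetylases), and 2 weeks after TSA removal. The p53-/- cells, called p53-null here, gave RNA without treatment, at 24 h and at 48 h of TSA. Each of these 7 conditions had 1 array. The TSA dose, the number of cell lines and the exposure that preceded the removal were not used here, since the labels do not state them.

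Cyclins of the D type bind CDK4 and CDK6, and cyclins of the E type bind CDK2. These kinases phosphorylate the retinoblastoma protein, which releases E2F transcription factors and lets a cell enter S phase. The INK4 inhibitors (here Cdkn2a, Cdkn2b, Cdkn2c) block CDK4 and CDK6. The Cip/Kip inhibitors (here Cdkn1a, Cdkn1b) bind cyclin and CDK complexes, chiefly those with CDK2. In cultured fibroblasts Cdkn2a and Cdkn2b are known as genes of replicative arrest, Cdkn1a is a classical p53 target, and histone deacetylase inhibitors are known to induce Cdkn1a in many cell types with or without p53. The questions put to the arrays were how these genes differed between the genotypes, what TSA did in cells without p53, and whether values 2 weeks after TSA differed from those before or during it.

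Values are the deposited MAS5 signals in arbitrary units, a brightness summed up over the probes of a probe set. They compare arrays for 1 probe set, and not probe sets or genes with each other. Differences and tests are on the log2(signal + 11.4) scale, which understates the change of dim probe sets. Probe sets went into the tests when 1 array or more had a signal over 45.6, the pooled median. This held for 14012 probe sets in all and for 18 of the 20 of these genes. The other 2 were Cdkn1a 1421679_a_at, at 31.2 or less on every array, and Cdkn1b 1419497_at, at 43.6 or less. With 1 array a group, limma took the spread from the departure from additivity or from the gap between 24 h and 48 h. Its p-values therefore measure the spread between these single arrays, which may be technical, and not the spread between cultures. RNA of a whole culture also cannot separate fewer cells of a kind from less RNA per cell.

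Median signals lay between 41.9 and 48.8 on the 7 arrays. Dnmt1 gave 206.5, 74.0, 109.5 and 123.2 in p53-Dnmt1-null cells (untreated, 24 h, 48 h, after removal), against 695.6, 384.4 and 308.2 in the p53-null cells. No probe set was annotated to Trp53 alone, so the loss of p53 could not be checked. The fibroblast label was checked against 12 fibroblast markers. Their summed signal was 8664 to 15073 on the p53-Dnmt1-null arrays, against 30428 to 37493 on the p53-null arrays, and 10 of the 12 were lower by limma in p53-Dnmt1-null cells. Postn gave 2.2 to 16.8 on the p53-Dnmt1-null arrays, near 0, against 1176 to 3815 on the p53-null arrays. The sum of 12 markers of simple epithelium and mesothelium, keratins among them, was 10957 to 19264 in the p53-Dnmt1-null cells, against 193.1 to 469.1 in the p53-null cells. Of its 10 markers that passed the filter, all 10 were higher by limma. The genotypes thus differed in markers of cell type as well as in Dnmt1, and for every genotype difference below the 2 cannot be told apart. Macrophage markers summed to 249.6 to 495.1 in the p53-Dnmt1-null cells, against 160.7 to 208.8 in the p53-null cells, and their part in the results was not tested.

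Between the genotypes, the INK4 inhibitors Cdkn2a, Cdkn2b and Cdkn2c and the cyclins Ccnd1 and Ccnd2 were lower in p53-Dnmt1-null cells. In a limma model with genotype and time as terms, fitted to the 6 arrays without the after-removal one, 12 of the 18 tested probe sets were lower at an adjusted p under 0.05 and 0 were higher. At an unadjusted p under 0.05 there were 13 of the 18, against 46.8% of all. Of all 14012 probe sets, 19.3% were called lower and 17.6% higher. The 12 probe sets belong to only 5 genes, with 6 of 7 for Ccnd2, 3 of 3 for Ccnd1, and 1 each for Cdkn2a, Cdkn2b and Cdkn2c. Probe sets of 1 gene share its RNA and are not separate observations. Counted with 1 probe set a gene, 5 of 10 genes were lower. The median log2 difference of the 18 probe sets was -0.86, against 0.02 over all tested probe sets. Of these 10 genes, the Cip/Kip inhibitors Cdkn1a and Cdkn1b, Ccnd3 and the E-type cyclins did not pass the test. This split does not hold for the whole families. Outside the 10 genes, the Cip/Kip inhibitor Cdkn1c was called lower (-3.12 ± 0.46, log2, SE) and the INK4 inhibitor Cdkn2d was not called (0.50 ± 0.21).

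Among the Cip/Kip inhibitors, Cdkn1a encodes p21, through which p53 arrests the cycle. Its probe set 1424638_at gave 61.1, 162.2, 43.4 and 34.0 in p53-Dnmt1-null cells (untreated, 24 h, 48 h, after removal), against 106.4, 71.2 and 108.7 in the p53-null cells. The p53-Dnmt1-null array at 24 h stood above all the others, and the remaining 3 arrays of that genotype stood below all 3 p53-null arrays. The genotypes differed by -0.25 ± 0.37 (log2, SE; limma adjusted p = 0.622). Without the 24 h arrays the difference was -0.92 with a limma adjusted p of 0.0136. Leaving out only the p53-Dnmt1-null or only the p53-null array at 24 h gave -0.92 with 0.0148 or 0.0107. These are not separate checks, because the time term takes up an array left without its partner, which fixes the same difference in advance. The p53-Dnmt1-null array at 24 h also had the highest signals of the 3 control probe sets for 18S ribosomal RNA. They were 2549, 2039 and 358.2, against 47.5 to 1292 on all the other arrays. On each of these control probe sets p53-Dnmt1-null cells were higher than p53-null cells at every matched time. The part of the 18S signals in the Cdkn1a value was not tested. The Cdkn1a probe set 1421679_a_at, below the filter, gave 4.5, 21.9, 16.1 and 2.1 in the p53-Dnmt1-null cells, against 31.2, 25.8 and 22.5 in the p53-null cells. It too was highest at 24 h among the p53-Dnmt1-null arrays, but below the p53-null arrays at every time.

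Cdkn1b encodes p27, an inhibitor of CDK2 that accumulates in resting cells. Its probe set 1434045_at gave 90.2, 50.5, 67.6 and 123.2 in the p53-Dnmt1-null cells, against 90.1, 126.6 and 148.3 in the p53-null cells. The untreated arrays were alike, while under TSA the p53-Dnmt1-null arrays were below their untreated array and the p53-null arrays above theirs. The genotype difference was -0.72 ± 0.25 (log2, SE) and missed the threshold (limma adjusted p = 0.0503), and with the offset set at the pooled median it was -0.54 and passed (0.0487). The probe set 1419497_at, below the filter, gave 9.3, 7.8, 10.7 and 43.6 in the p53-Dnmt1-null cells, against 4.2, 13.3 and 12.9 in the p53-null cells. On both probe sets the after-removal array was the highest of the p53-Dnmt1-null arrays.

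**Figure D1:**
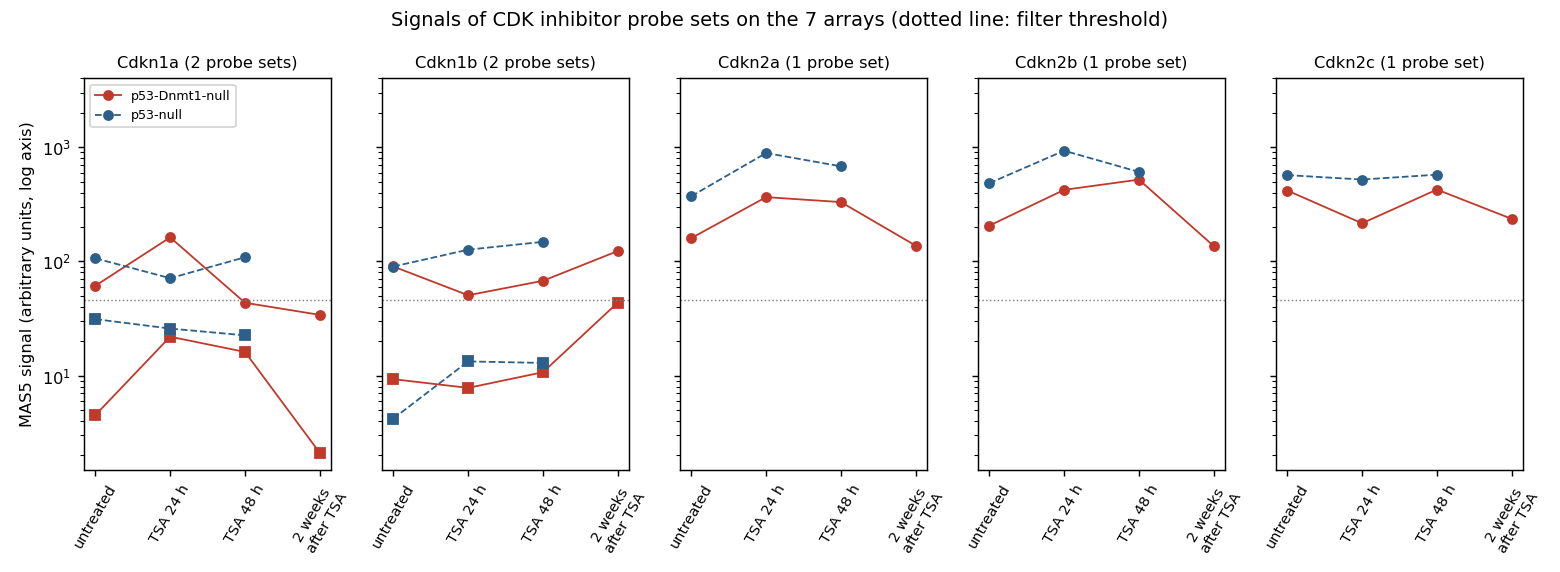
MAS5 signal (arbitrary units, log axis) of every CDK inhibitor probe set on the 7 arrays, with 1 point for each array, p53-Dnmt1-null cells in solid red and p53-null cells in dashed blue, and a dotted line at the filter value of 45.6. Cdkn2a and Cdkn2b were higher at both TSA times than untreated in both genotypes and lay at 137.2 and 136.1 on the after-removal array, while Cdkn1a showed 1 high array at 24 h.

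The locus of Cdkn2a encodes 2 proteins from different first exons, p16Ink4a, which blocks CDK4 and CDK6, and p19Arf, which stabilises p53. Neighbouring Cdkn2b encodes p15Ink4b, a CDK4 and CDK6 inhibitor induced by TGF-beta. These 2 genes gave the results below on TSA and its removal. Cdkn1a is the inhibitor usually named for histone deacetylase inhibitors, and its probe set 1424638_at had no common direction with TSA. For these reasons the 250 bases before each annotated start of Cdkn2a, Cdkn2b and Cdkn1a are shown, from RefSeq windows of build GRCm38.p6. The GC box, GGGCGG or its reverse complement CCGCCC, is in capitals, a motif bound by Sp1 and related factors. The 2 Cdkn2a windows are chr4:89294620-89294869 and, further along the gene, chr4:89282193-89282442, both on the minus strand. The Cdkn2b window is chr4:89311033-89311282 on the minus strand. The 2 Cdkn1a windows are chr17:29090729-29090978 and chr17:29093519-29093768 on the plus strand.
Cdkn2a, upstream start: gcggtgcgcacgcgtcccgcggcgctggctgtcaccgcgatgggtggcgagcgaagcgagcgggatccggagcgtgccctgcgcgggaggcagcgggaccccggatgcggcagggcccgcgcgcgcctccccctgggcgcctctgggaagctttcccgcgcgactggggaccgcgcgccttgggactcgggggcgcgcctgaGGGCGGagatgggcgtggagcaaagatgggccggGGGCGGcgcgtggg
Cdkn2a, downstream start: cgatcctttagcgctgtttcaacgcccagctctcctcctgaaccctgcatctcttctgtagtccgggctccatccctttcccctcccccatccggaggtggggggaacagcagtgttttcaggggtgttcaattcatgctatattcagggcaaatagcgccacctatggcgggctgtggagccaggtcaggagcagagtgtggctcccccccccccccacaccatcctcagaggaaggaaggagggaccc
Cdkn2b: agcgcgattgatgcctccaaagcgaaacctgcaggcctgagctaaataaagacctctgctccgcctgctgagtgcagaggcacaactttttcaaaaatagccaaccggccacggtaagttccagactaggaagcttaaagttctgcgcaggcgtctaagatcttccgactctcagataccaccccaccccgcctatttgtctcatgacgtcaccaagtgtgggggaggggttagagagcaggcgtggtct
Cdkn1a, upstream start: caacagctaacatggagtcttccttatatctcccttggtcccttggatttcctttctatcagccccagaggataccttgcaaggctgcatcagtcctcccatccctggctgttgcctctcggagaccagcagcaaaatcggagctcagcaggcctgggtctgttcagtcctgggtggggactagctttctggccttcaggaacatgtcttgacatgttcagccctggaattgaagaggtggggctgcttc
Cdkn1a, downstream start: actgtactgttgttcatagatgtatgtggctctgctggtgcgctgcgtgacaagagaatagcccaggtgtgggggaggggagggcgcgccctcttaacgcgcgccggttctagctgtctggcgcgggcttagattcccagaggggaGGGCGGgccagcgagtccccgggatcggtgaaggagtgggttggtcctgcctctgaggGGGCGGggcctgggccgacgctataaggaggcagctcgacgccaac
The upstream Cdkn2a window held 2 GC boxes and 40 CG dinucleotides, the target of Dnmt1, more than 98.7% of all 32851 windows of this length in the table. The downstream Cdkn2a window held no GC box and 7 CG, and the Cdkn2b window no GC box and 12 CG, against a median of 6 CG over all windows. The Cdkn1a windows held 2 CG and no GC box at the upstream start, and 19 CG and 2 GC boxes at the downstream start. RefSeq windows were matched for 7 of the 10 genes, with 11 windows. A GC box stood in 7 of the 11, against 32.7% of all windows. The E-box CACGTG (6.02% of all windows) and the E2F motifs TTTGGCGC (0.417%) and TTTCGCGC (0.256%), searched on both strands, were in 0 of the 11, so none overlapped a GC box. These counts describe letters and not binding or methylation, which were not measured on these arrays.

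Cdkn2a (1450140_a_at) gave 159.8, 365.3, 330.4 and 137.2 in p53-Dnmt1-null cells (untreated, 24 h, 48 h, after removal), against 372.0, 888.8 and 679.7 in the p53-null cells. At each matched time the p53-Dnmt1-null array was the lower one, and every p53-Dnmt1-null array lay below every p53-null array. The genotype difference was -1.15 ± 0.16 (log2, SE; limma adjusted p = 0.000848), with -1.16, -1.26 and -1.02 at untreated, 24 h and 48 h. The probe set does not separate transcripts of the locus, so which of the 2 starts it reports is not known here.

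Cdkn2b (1449152_at) gave 205.4, 422.9, 520.1 and 136.1 in the p53-Dnmt1-null cells, against 483.4, 931.5 and 607.0 in the p53-null cells. It was lower in p53-Dnmt1-null cells at each matched time, but the ranges overlapped, since the p53-Dnmt1-null array at 48 h was above the untreated p53-null array. The difference was -0.84 ± 0.21 (log2, SE; limma adjusted p = 0.0149), with -1.19 untreated, -1.12 at 24 h and -0.22 at 48 h.

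Cdkn2c encodes p18Ink4c, an INK4 inhibitor and a known E2F target. Its probe set 1416868_at gave 417.5, 215.5, 425.5 and 235.5 in the p53-Dnmt1-null cells, against 569.5, 520.9 and 574.4 in the p53-null cells. All p53-Dnmt1-null arrays were below all p53-null arrays, with the 24 h and after-removal arrays lowest. The genotype difference was -0.70 ± 0.20 (log2, SE; limma adjusted p = 0.0258). Without the 24 h arrays it was -0.43 and no longer passed (0.118), and the call was also lost without the 48 h arrays (-0.83, adjusted p = 0.0578), with no filter (0.0554) or with no intensity trend (0.0513).

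Among the D-type cyclins, Ccnd1 encodes cyclin D1, a sensor of growth factor signalling. Its probe set 1448698_at gave 854.0, 875.2, 1035 and 511.9 in p53-Dnmt1-null cells (untreated, 24 h, 48 h, after removal), against 1911, 1935 and 1337 in the p53-null cells. The probe set 1417420_at gave 582.3, 504.8, 770.0 and 659.4 in the p53-Dnmt1-null cells, against 1428, 1444 and 862.8 in the p53-null cells. The probe set 1417419_at gave 386.1, 441.3, 406.0 and 445.2 in the p53-Dnmt1-null cells, against 850.5, 791.9 and 477.0 in the p53-null cells. On all 3 probe sets the genotypes stood well apart untreated and at 24 h and close at 48 h, and their ranges did not overlap. The 48 h array of p53-null cells was the lowest of that genotype on each. The log2 differences between genotypes were -0.88 ± 0.17, -0.98 ± 0.24 and -0.72 ± 0.20 (SE), with limma adjusted p of 0.00405, 0.0121 and 0.0193 in the same order. By time they ran between -1.28 and -1.12 untreated, -1.50 and -0.83 at 24 h, and -0.37 and -0.16 at 48 h.

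Ccnd2 encodes cyclin D2, another partner of CDK4 and CDK6. It had 7 probe sets, and at each of the 3 times all 7 were lower in p53-Dnmt1-null cells. The probe set 1416122_at gave 780.3, 1218, 1619 and 1314 in the p53-Dnmt1-null cells, against 2247, 2595 and 2521 in the p53-null cells. The probe set 1434745_at gave 412.2, 744.3, 937.3 and 444.5 in the p53-Dnmt1-null cells, against 1641, 2150 and 1875 in the p53-null cells. The untreated p53-Dnmt1-null array was the lowest of the 7 on both, and no p53-Dnmt1-null array reached a p53-null one. The probe set 1430127_a_at gave 370.2, 749.2, 890.2 and 623.2 in the p53-Dnmt1-null cells, against 1553, 1907 and 1735 in the p53-null cells. The probe set 1455956_x_at, whose suffix marks probes that may match other transcripts, gave 163.1, 367.7, 436.0 and 509.0 in the p53-Dnmt1-null cells, against 722.4, 956.6 and 840.9 in the p53-null cells. The probe set 1448229_s_at gave 242.6, 458.0, 421.5 and 257.0 in the p53-Dnmt1-null cells, against 908.1, 985.9 and 1028 in the p53-null cells. These also separated the genotypes completely, and differed from each other on the after-removal array, which was the highest of the p53-Dnmt1-null arrays on 1455956_x_at and close to the untreated one on 1448229_s_at. The remaining 2 probe sets had signals near the filter value. On 1416123_at they were 31.2, 49.2, 35.1 and 47.0 in the p53-Dnmt1-null cells, against 79.3, 118.8 and 102.9 in the p53-null cells. On 1416124_at they were 20.4, 14.2, 23.3 and 47.1 in the p53-Dnmt1-null cells, against 39.8, 38.8 and 28.2 in the p53-null cells, so that it passed the filter only through its after-removal array. The log2 differences between genotypes of the other 6 ran between -1.49 ± 0.18 (1434745_at, SE; limma adjusted p = 0.000366) and -1.08 ± 0.16 (1416122_at, adjusted p = 0.00107). For 1416124_at the difference was -0.62 ± 0.28 (adjusted p = 0.116).

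**Figure D2:**
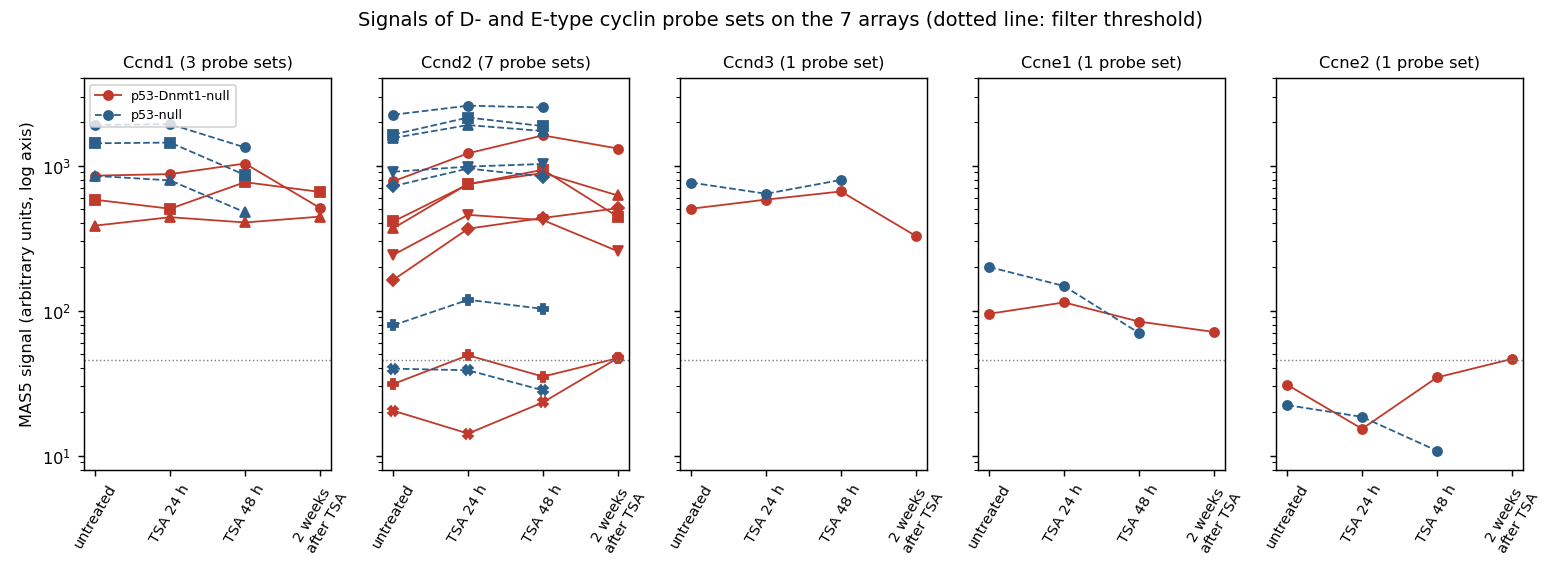
MAS5 signal (arbitrary units, log axis) of every D- and E-type cyclin probe set on the 7 arrays, 1 point for each array, with p53-Dnmt1-null cells in solid red, p53-null cells in dashed blue, 1 marker shape for each probe set, and a dotted line at the filter value of 45.6. All 7 Ccnd2 and all 3 Ccnd1 probe sets lay lower in p53-Dnmt1-null cells at each matched time.

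Ccnd3 encodes cyclin D3, the third D-type cyclin. Its probe set 1415907_at gave 504.9, 583.8, 664.2 and 327.5 in the p53-Dnmt1-null cells, against 764.2, 640.4 and 797.5 in the p53-null cells. It was lower in p53-Dnmt1-null cells at each matched time, with overlapping ranges and a difference of -0.33 ± 0.16 (log2, SE; limma adjusted p = 0.135). Ccne1 and Ccne2 encode cyclins E1 and E2, the partners of CDK2 at the start of S phase and themselves E2F targets. Ccne1 (1416492_at) gave 95.2, 114.0, 84.1 and 71.3 in the p53-Dnmt1-null cells, against 200.1, 147.8 and 70.2 in the p53-null cells. It was lower in p53-Dnmt1-null cells untreated and at 24 h and higher at 48 h, and differed by -0.37 ± 0.24 (adjusted p = 0.267). Ccne2 (1422535_at) gave 30.8, 15.3, 34.6 and 46.4 in the p53-Dnmt1-null cells, against 22.3, 18.5 and 10.8 in the p53-null cells. It passed the filter only through the after-removal array and differed by 0.40 ± 0.33 (adjusted p = 0.364).

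Single pairs of arrays allowed no test and were read by size. Untreated, 11 of the 18 probe sets were at least 2-fold lower in p53-Dnmt1-null cells and 0 at least 2-fold higher, where 10.7% of all tested probe sets were that much lower and 8.75% that much higher. At all 3 times, 3 of the 18 were at least 2-fold lower, namely Cdkn2a, Ccnd2 1448229_s_at and Ccnd2 1416123_at, against 6.01% of all, and 0 were at least 2-fold higher, against 4.49% of all. Lower by any size at all 3 times were 14 of the 18, against 31.6% of all, and 0 were higher at all 3, against 32.8% of all. The 14 belong to Cdkn2a, Cdkn2b, Cdkn2c, Ccnd1, Ccnd2 and Ccnd3.

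**Figure D3:**
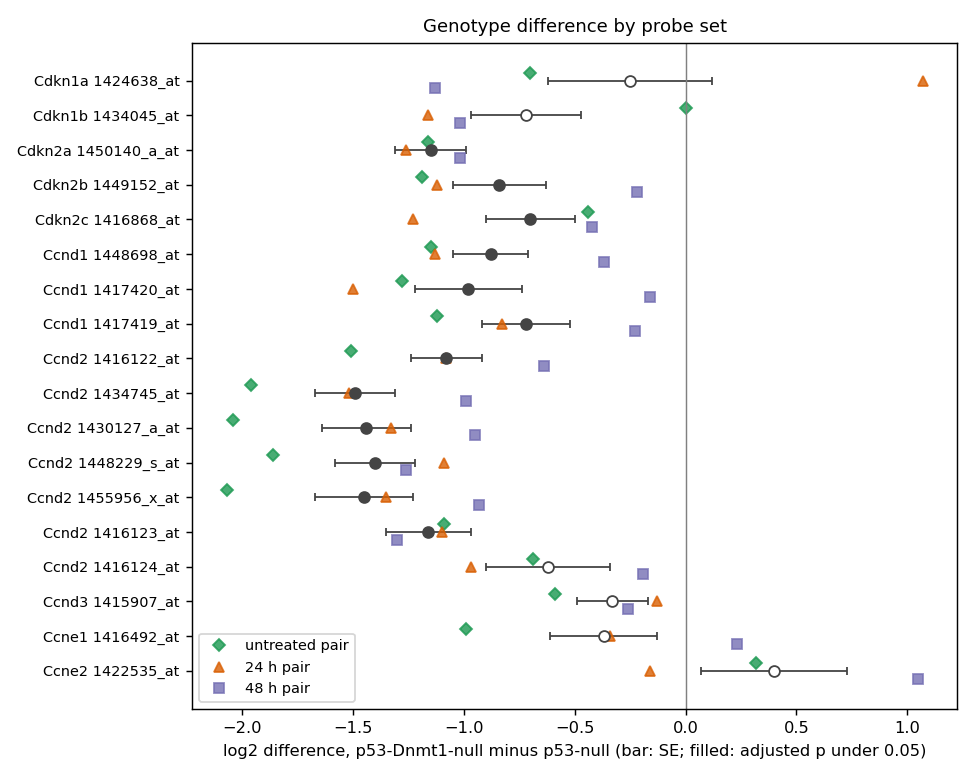
Log2 difference of p53-Dnmt1-null minus p53-null for the 18 tested probe sets. Circles with SE bars are the limma estimates over 6 arrays, filled where the adjusted p is under 0.05, and the coloured markers are the single pairs at untreated, 24 h and 48 h. The 12 filled circles lie between -1.49 and -0.70, and for Ccnd1 and Cdkn2b the 48 h pair lies nearest to 0.

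With TSA, Cdkn2a and Cdkn2b were higher than untreated at both times in both genotypes, and 5 of the 7 Ccnd2 probe sets were higher by more in p53-Dnmt1-null than in p53-null cells. None of these differences passed the test over all probe sets. Averaged over genotypes, limma called 0 of the 18 probe sets, where 0.0143% of all were called higher (2 probe sets) and 0.0% lower. At an unadjusted p under 0.05 there were 7 of the 18, against 14.6% of all. The 7 were Cdkn2a, Cdkn2b and 5 Ccnd2 probe sets, and with 1 probe set a gene the count was 3 of 10. In p53-Dnmt1-null cells alone 0 of 18 were called and 7 had an unadjusted p under 0.05 (8.11% of all), and in p53-null cells alone 0 were called and 1 had one (8.61% of all). Limma called 0.0% of all probe sets in either genotype alone, in either direction. In these fits a gap between 24 h and 48 h adds to the error.

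For Cdkn2a the TSA difference averaged 1.05 ± 0.20 (log2, SE; limma adjusted p = 0.109). It was 1.07 ± 0.31 in p53-Dnmt1-null cells, with 1.14 at 24 h and 1.00 at 48 h, and 1.04 ± 0.31 in p53-null cells, with 1.23 and 0.85. The difference between genotypes in the TSA effect was 0.03 ± 0.44 (limma adjusted p = 0.996), smaller than its error. For Cdkn2b the average was 0.89 ± 0.24 (limma adjusted p = 0.182). It was 1.15 ± 0.35 in p53-Dnmt1-null cells, with 1.00 at 24 h and 1.29 at 48 h. In p53-null cells it was 0.63 ± 0.35, with 0.93 at 24 h and only 0.32 at 48 h.

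The Cdkn1a probe set 1424638_at had no common direction with TSA. In p53-Dnmt1-null cells it was 1.26 higher (log2) at 24 h and -0.40 at 48 h against the untreated array, and in p53-null cells -0.51 and 0.03. The average over genotypes was 0.09 ± 0.42 (limma adjusted p = 0.947), and without the p53-Dnmt1-null array at 24 h it was -0.31. The dim probe set 1421679_a_at gave 1.07 and 0.79 at 24 h and 48 h in p53-Dnmt1-null cells, and -0.20 and -0.33 in p53-null cells, at signals under the filter on every array. Cdkn1b averaged 0.00 ± 0.27, with -0.71 and -0.36 in p53-Dnmt1-null cells and 0.44 and 0.65 in p53-null cells. Its difference between genotypes in the TSA effect was -1.09 ± 0.44 (limma adjusted p = 0.995). Cdkn2c gave -0.92 and 0.03 in the p53-Dnmt1-null cells, against -0.13 and 0.01 in the p53-null cells.

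The 5 Ccnd2 probe sets other than 1416123_at and 1416124_at gave TSA differences of 0.83 to 1.24 (log2) in the p53-Dnmt1-null cells, against 0.15 to 0.31 in the p53-null cells. On the log2 scale, though not always in signal units, the genotypes were nearer to each other under TSA than untreated on each of these 5. The difference between genotypes in the TSA effect was 0.65 to 0.93 for them, with SE of 0.33 to 0.41 and a limma adjusted p of 0.995 for each. Of the 14012 probe sets 0 were called in that test in either direction (0.0%), and 3.43% had an unadjusted p under 0.05, among them Ccnd2 1430127_a_at (0.89 ± 0.36) and Cdkn1b. Ccnd1 stayed within 0.40 of its untreated array in p53-Dnmt1-null cells on all 3 probe sets. In p53-null cells it was near the untreated array at 24 h (-0.10 to 0.02) and lower at 48 h (-0.82 to -0.51). Ccnd3 was within 0.39 of untreated on every TSA array. Ccne1 gave 0.23 and -0.16 in the p53-Dnmt1-null cells, against -0.41 and -1.37 in the p53-null cells, where the 48 h array was the lowest of all 7.

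By size, 2 of the 18 probe sets were at least 2-fold higher at both TSA times in the p53-Dnmt1-null cells, against 1.71% of all, and 0 in p53-null cells, against 1.51% of all. At least 2-fold lower at both times were 0 of 18 in either genotype, against 0.378% of all in p53-Dnmt1-null cells and 1.03% in p53-null cells. The 2 were Ccnd2 1455956_x_at (1.12 at 24 h and 1.36 at 48 h, log2) and Cdkn2b (1.00 and 1.29). Just under the limit were Cdkn2a (1.14 and 1.00) and Ccnd2 1430127_a_at (1.00 and 1.24), so this count turns on differences smaller than the last digit given.

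**Figure D4:**
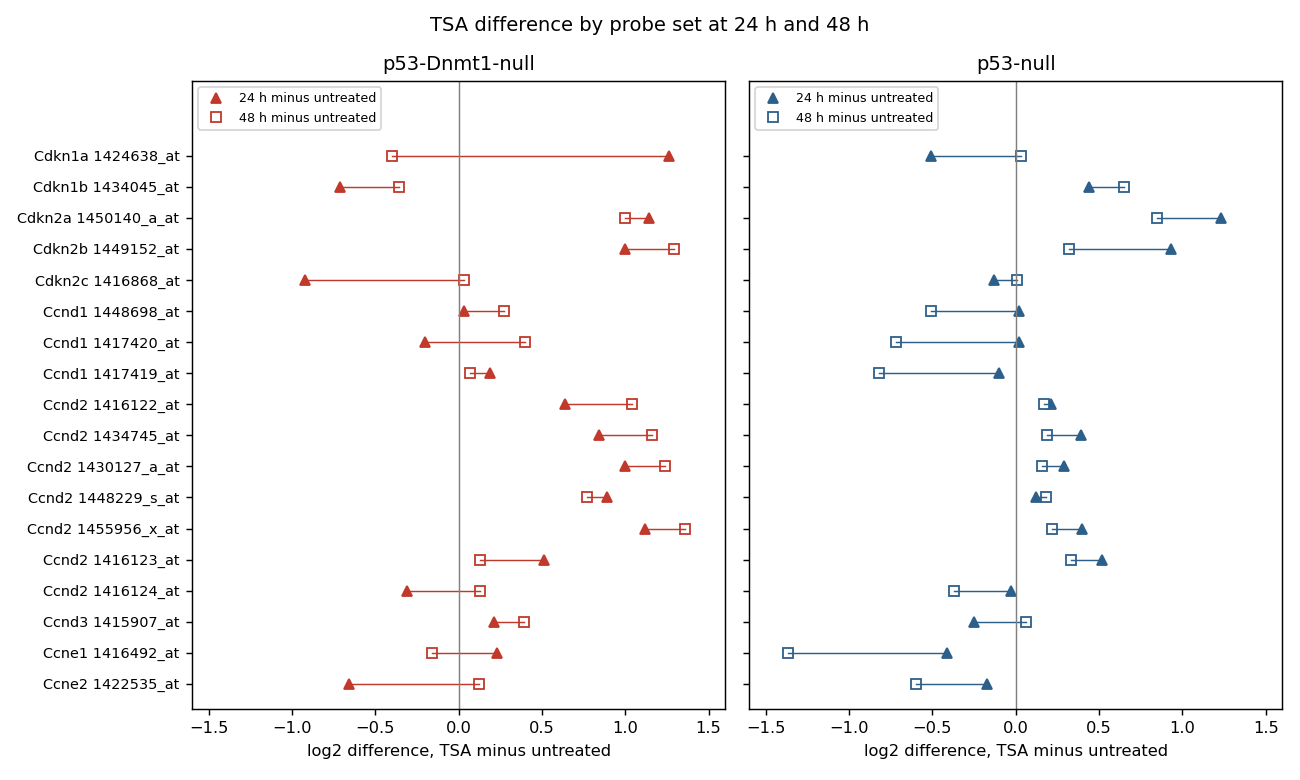
Log2 difference of TSA minus untreated for the 18 tested probe sets, with p53-Dnmt1-null cells on the left and p53-null cells on the right, and a triangle for 24 h and a square for 48 h, each from 1 pair of arrays. Cdkn2a and Cdkn2b lie right of 0 in both panels, and 5 Ccnd2 probe sets lie further right in p53-Dnmt1-null cells (0.64 to 1.36) than in p53-null cells (0.12 to 0.40).

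At 2 weeks after TSA removal, Cdkn2a and Cdkn2b of the p53-Dnmt1-null cells fell against the TSA arrays. Against the 24 h and 48 h arrays together, Cdkn2b differed by -1.70 ± 0.35 (log2, SE; limma adjusted p = 0.0239) and Cdkn2a by -1.27 ± 0.31 (adjusted p = 0.0347). These 2 of the 18 probe sets were called lower and 0 higher, where 7.63% of all tested probe sets were called lower and 6.47% higher, so 2 of 18 is close to that share. At an unadjusted p under 0.05 there were 8 of 18, against 35.3% of all. Among the 8 was Ccnd2 1416124_at (0.97 higher, log2), which passed the filter only through its after-removal array. Its height there is therefore no support. Ccne2 entered the 18 in the same way. Both calls rest on few arrays. They were lost without the p53-Dnmt1-null array at 24 h, with adjusted p of 0.0532 for Cdkn2b and 0.0821 for Cdkn2a, and Cdkn2a also lost its call without the p53-null array at 24 h (0.0564) or at 48 h (0.0563), which enter through the spread. Both were also lost with no filter on dim probe sets, at 0.0688 and 0.0698. Cdkn1a 1424638_at differed by -1.10 and was not called (adjusted p = 0.224), but was called lower without the p53-Dnmt1-null array at 48 h (-1.94, adjusted p = 0.0236). By size, the same 2 probe sets were at least 2-fold below both TSA arrays, against 8.66% of all, and 0 were at least 2-fold above both, against 7.22% of all. The after-removal signals, 136.1 for Cdkn2b and 137.2 for Cdkn2a, were the lowest of all 7 arrays for each gene. Markers of cell type moved with these 2 genes. In the same comparison 6 of 12 fibroblast markers were called lower and 0 higher (median -0.49, log2), and of 10 markers of simple epithelium and mesothelium 2 were called lower and 10 lay below 0 (median -0.77), against a median of -0.08 over all tested probe sets. The summed signals were 8664 after removal, against 14746 and 15073 at 24 h and 48 h, for the fibroblast markers, and 10957, against 19264 and 17706, for the epithelial ones. The after-removal array also had the highest signal of all 7 on each of the 3 Actb and 3 Gapdh control probe sets. On each of the 3 control probe sets for 18S ribosomal RNA it had the lowest, and the p53-Dnmt1-null TSA arrays had the highest. On 1 of them the after-removal signal was 93.6, against 2549 and 1292 at 24 h and 48 h. The part of these in the Cdkn2a and Cdkn2b values was not tested.

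Against the untreated p53-Dnmt1-null array 0 of the 18 probe sets were called after removal, where 0.0143% of all were called higher and 0.0% lower by limma, and 3 of 18 had an unadjusted p under 0.05 (18.8% of all). Cdkn2a differed by -0.20 ± 0.36 (log2, SE) and Cdkn2b by -0.56 ± 0.40. The Ccnd2 probe sets were 0.08 to 1.58 above the untreated array, with 1455956_x_at the highest (1.58 ± 0.33, adjusted p = 0.108), and 1416124_at had passed the filter only through its after-removal signal. Only 1455956_x_at, 1 probe set of the 18, was at least 2-fold higher, against 6.73% of all, and 0 were at least 2-fold lower, against 8.44%. Ccnd1 differed between probe sets, with -0.73 ± 0.33 on 1448698_at and 0.18 ± 0.44 and 0.20 ± 0.40 on the other two. Cdkn1a was at -0.68 ± 0.69 and Ccnd3 at -0.61 ± 0.33. Against the untreated p53-null array, both Cdkn1b probe sets, Ccne2 and Ccnd2 1416124_at were higher after removal, and the other probe sets of these genes were lower. The share over all probe sets was not counted for this pair. Its 2 arrays differ in genotype, markers of cell type and treatment, so it gives no result about these genes.

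**Figure D5:**
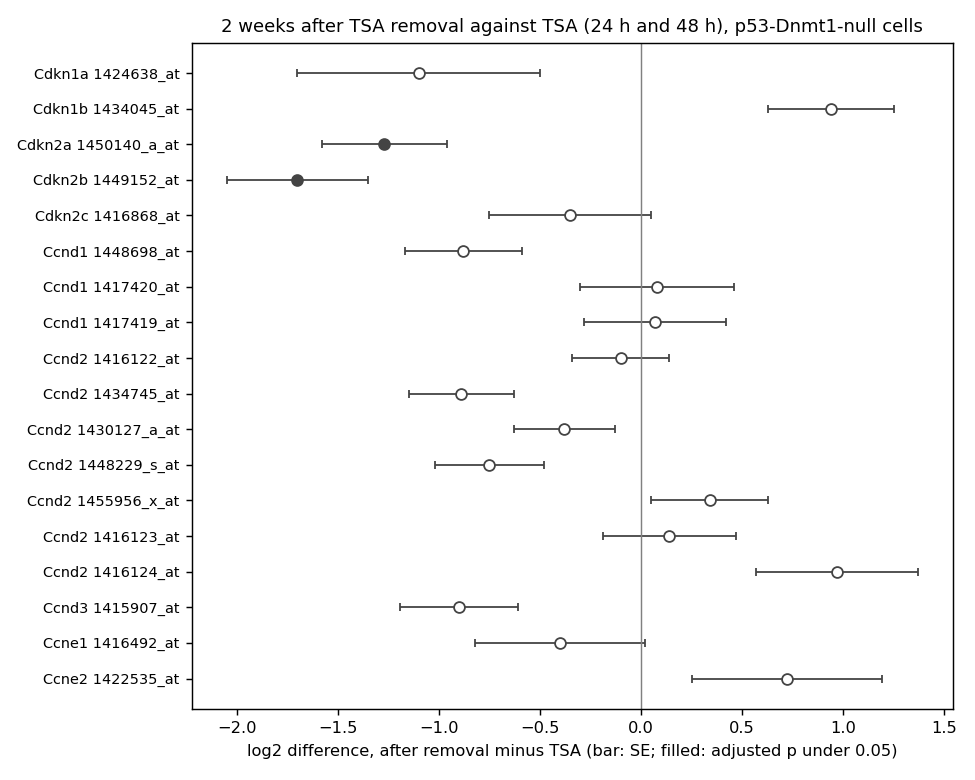
Log2 difference of the after-removal array minus the TSA arrays (24 h and 48 h together) in p53-Dnmt1-null cells for the 18 tested probe sets, with SE bars, filled where the limma adjusted p is under 0.05. The 2 filled points are Cdkn2a (-1.27) and Cdkn2b (-1.70), and Cdkn1b lies at 0.94, not called.

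Other genes of the G1 pathway were read from lists of textbook members, with 1 probe set a gene. Between the genotypes 17.6% of all tested probe sets were called higher and 19.3% lower, and the counts of the kinase, pocket protein and turnover lists below are near these shares or under them. Of the other CDK inhibitors, Cdkn1c (p57, imprinted) was lower in p53-Dnmt1-null cells by -3.12 ± 0.46 (log2, SE; limma adjusted p = 0.00107), at 7.9, 61.1, 17.0 and 22.7, against 167.6, 199.7 and 674.8 in the p53-null cells. Cdkn2d (p19Ink4d) differed by 0.50 ± 0.21 and was not called. Of 7 genes for G1 kinases and their activators that passed the filter, 1 was called lower between genotypes, Ccnh (-0.61 ± 0.18), a subunit of the CDK-activating kinase, and 0 higher. Of 12 genes for pocket proteins, E2F factors and their partners, 3 were called higher and 1 lower. E2f4, an E2F of repressor complexes, was higher by 0.95 ± 0.23 and Tfdp1, a partner of E2F proteins, by 0.72 ± 0.20. Rbl2, the pocket protein p130 of resting cells, was lower by -1.28 ± 0.21. Of 11 genes for the turnover of CDK inhibitors and cyclins, 2 were higher, Ddb1 (0.59 ± 0.11) and Cks1b (0.41 ± 0.12), and 1 was lower, Fbxo4 (-0.66 ± 0.20).

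The E2F target genes of S phase entry lay on the other side of 0 from Ccnd1 and Ccnd2 between the genotypes. Of 18 that passed the filter, 13 were called higher and 0 lower in the p53-Dnmt1-null cells, against 17.6% and 19.3% of all. The 18 had a median log2 difference of 0.97, against 0.02 over all tested probe sets. Cdc6, a loader of the replicative helicase, was higher by 2.54 ± 0.29 (SE), its partner Cdt1 by 2.11 ± 0.21 and the helicase subunit Mcm5 by 1.79 ± 0.31. With TSA, 18 of 18 lay below 0 averaged over genotypes, with a median of -0.95, against 0.01 over all. By limma 0 were called, and 15 had an unadjusted p under 0.05, against 14.6% of all. The summed signal of 19 such genes was 17681, 6930, 12896 and 17832 in p53-Dnmt1-null cells (untreated, 24 h, 48 h, after removal), against 9747, 4867 and 3670 in the p53-null cells. It was lowest at 24 h in p53-Dnmt1-null cells and at 48 h in p53-null cells. After removal 18 of 18 lay above the TSA arrays (median 0.73), with 1 called higher, near the 6.47% of all called higher. Cdkn2a and Cdkn2b thus lay on the opposite side from these genes in each of the 3 comparisons. This was not particular to them. With 1 probe set a gene, Cdkn1a, Ccnd2 and Ccnd3 did so too, while Cdkn1b, Cdkn2c, Ccnd1, Ccne1 and Ccne2 did not. Of 12 fibroblast markers, 12 lay below 0 between genotypes, 11 above 0 with TSA and 9 below 0 after removal. A link to the E2F targets was not tested.

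After removal, against the TSA arrays, 6.47% of all tested probe sets were called higher and 7.63% lower. Of the 11 turnover genes 2 were called higher and 1 lower. Skp2, the ubiquitin ligase subunit that marks p27 for destruction, was higher by 1.80 ± 0.30 (log2, SE; limma adjusted p = 0.0147) and Cul1, its scaffold, by 1.42 ± 0.34 (0.0332), while Ddb1 was lower by -0.76 ± 0.21 (0.0458). Of 22 transcription factors placed upstream of these genes by textbooks, 3 were called higher and 1 lower. Sp1, which binds GC boxes, gave 1003 after removal, against 260.2, 159.8 and 237.7 untreated and at 24 h and 48 h (2.30 ± 0.36 against TSA). Sp3 was higher by 1.78 ± 0.32, and Bmi1, the Polycomb protein known to repress Cdkn2a, by 1.33 ± 0.33 (0.0370). Bmi1 gave 195.8 after removal, against 61.6 and 81.5 on the p53-Dnmt1-null TSA arrays, and 153.0 on the untreated one. Max, the partner of Myc, was lower by -1.43 ± 0.30. Between the genotypes 5 of the 22 were called higher and 6 lower, not far from the shares of all tested probe sets (17.6% and 19.3%). Mycn was at 3.47 ± 0.23 and Foxo1, which activates Cdkn1b, at -1.27 ± 0.18.

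Of 14 other p53 target genes that passed the filter, 2 were called higher and 3 lower in p53-Dnmt1-null than in p53-null cells, near the shares of all tested probe sets (17.6% and 19.3%), and the median log2 difference of the 14 was -0.06. Btg2 and Perp were higher by 0.89 ± 0.26 and 0.75 ± 0.25 (SE), and Sesn2, Zmat3 and Sesn1 were lower by -1.09 ± 0.18, -1.08 ± 0.19 and -0.79 ± 0.20. With TSA 0 of the 14 were called by limma. Perp, like Cdkn1a, had its highest signal on the p53-Dnmt1-null array at 24 h, at 142.5, against 49.4 or less on each of the other arrays.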

How the data were processed

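RNA was purified with TriZol and hybridised to Affymetrix arrays, 7 in all, per the labels' protocols. The deposited values were linear signal intensities. Per the submitters' processing notes the authors made them with MAS5 (version and target value not given in the sources used here). Deposited intensity values had a 2% trimmed mean of 150.05 to 150.06 on every array, so the arrays had been scaled before deposit, and no further scaling was done. MAS5 corrects each probe set for background on 1 array at a time, which leaves dim probe sets noisy. The number of arrays limits the precision.

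Probe sets were named through the platform annotation, with 20393 under 1 symbol, 691 under several and 1606 not listed, and 20364 symbols were updated through their Entrez identifiers to the RefSeq gene table. The 64 control probe sets were left out. Signals were taken as log2(signal + 11.4), the offset being the pooled 25th percentile. Models were fitted with limma 3.58.1 in R 4.3.3 to all 14012 probe sets that passed the filter, with a trend on intensity, and p-values were adjusted by Benjamini and Hochberg, with a threshold of 0.05. The genotype model had genotype and time as additive terms and 2 residual degrees of freedom. TSA and after-removal models pooled 24 h and 48 h, with 2 residual degrees of freedom, or 3 for TSA averaged over genotypes, and assume that lone arrays vary like these pairs. Single pairs were read by a 2-fold limit. Other offsets, filters, quantile normalization, no trend, 1 probe set a gene and left-out arrays were tried.

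The text names every probe set of the 10 genes. Of the other lists it names, in a comparison, genes among the 3 highest and the 3 lowest log2 differences, and Dnmt1. Perp at 24 h, Sp1 and Bmi1 signals were singled out after their values were seen. For likeness it names the 3 genes with the highest Pearson r over the 7 arrays. The genes, the lists and the tests were chosen with earlier results of these data known. Promoter windows came from the RefSeq table, whose 300-base windows include 50 bases past the start that are not shown.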

Additional observations from a re-analysis of the deposited data

Results flagged for a closer look

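Of the 20 probe sets, 3 had TSA differences of 1 sign at both times in 1 genotype and the opposite sign in the other. Single pairs of arrays left this untested. Cdkn1a 1424638_at and Ccnd1 1417420_at also had opposite signs in the genotypes at each time, but changed sign between the times. Cdkn1b 1434045_at was lower with TSA in p53-Dnmt1-null cells (-0.71 at 24 h and -0.36 at 48 h, log2) and higher in p53-null cells (0.44 and 0.65). In the limma model the TSA effects differed by -1.09 ± 0.44 (SE; adjusted p = 0.995). Cdkn1b 1419497_at, below the filter, gave -0.11 and 0.09 in the p53-Dnmt1-null cells, against 0.66 and 0.64 in the p53-null cells. Ccnd1 1417419_at was slightly higher with TSA in p53-Dnmt1-null cells (0.19 and 0.07) and lower in p53-null cells (-0.10 and -0.82). Its TSA effects differed by 0.59 ± 0.49 (SE; limma adjusted p = 0.995). The other Ccnd1 probe sets, 1448698_at and 1417420_at, had opposite signs at 48 h and values near 0 at 24 h. Cdkn1a 1421679_a_at, below the filter on every array, was higher with TSA in p53-Dnmt1-null cells (1.07 and 0.79) and lower in p53-null cells (-0.20 and -0.33). With no filter its TSA effects differed by 1.19 ± 0.39 (SE; limma adjusted p = 0.973).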

How the results depend on the processing

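Of 1460 values of single probe sets under other settings, 1397 kept their direction and their side of the threshold, 14 lost a call, 5 gained one and 44 changed sign. The single-array settings for the p53-Dnmt1-null array at 48 h and both p53-null TSA arrays were chosen after seeing the data. Cdkn2a, Cdkn2b, Ccnd1 and 6 Ccnd2 probe sets kept their genotype calls under every setting that gave a value. Between genotypes 12 probe sets were called, 13 with the offset at the pooled median, 11 with no filter, no trend, or without both or either of the 48 h arrays, and 5 with 1 probe set a gene, by construction. The count stayed at 12 without both or either of the 24 h arrays, where Cdkn1a was called and Cdkn2c was not. In the genotype model, leaving out either array of a time gives the same difference as leaving out both, so these settings are not separate checks. After removal minus TSA 2 were called, 0 with no filter or without the p53-Dnmt1-null array at 24 h, 1 without either p53-null TSA array, and 3 without the p53-Dnmt1-null array at 48 h, Cdkn1a being the third. Counts by size moved to 1 at all 3 genotype times (main value 3) with the offset at the pooled median. For TSA in p53-Dnmt1-null cells they were 4 with an offset of 1 and 0 with the offset at the pooled median (main value 2), and for after removal minus untreated 2 with an offset of 1 or quantile normalization (main value 1). Signs changed as follows. The genotype difference of Cdkn1a was 0.19 without both or either of the 48 h arrays. TSA averaged over genotypes was -0.19 in Cdkn1a and 0.02 in Cdkn2c without the 24 h arrays, -0.31 in Cdkn1a without the p53-Dnmt1-null array at 24 h, and -0.03 in Cdkn1b without the p53-null array at 24 h. Without the 48 h arrays it was -0.14 in Cdkn1b, 0.03 in Ccnd1 1448698_at, 0.04 in Ccnd1 1417419_at and -0.02 in Ccnd3. Without the p53-null array at 48 h it was -0.12 in Cdkn1b and 0.10, 0.06 and 0.03 in Ccnd1 1448698_at, 1417420_at and 1417419_at. In Cdkn1b it was also -0.01 with an offset of 1 and -0.03 with quantile normalization. TSA in p53-Dnmt1-null cells was -0.40 in Cdkn1a, 0.03 in Cdkn2c, 0.13 in Ccnd2 1416124_at, -0.16 in Ccne1 and 0.12 in Ccne2 without the 24 h array, and -0.20 in Ccnd1 1417420_at without the 48 h array. TSA in p53-null cells was 0.03 in Cdkn1a, 0.01 in Cdkn2c and 0.06 in Ccnd3 without the 24 h array, and 0.02 in Ccnd1 1448698_at and 1417420_at without the 48 h array. The difference of TSA effects in Cdkn2a was -0.04 with the offset at the pooled median or without the p53-Dnmt1-null array at 24 h, -0.01 with quantile normalization and -0.16 without the p53-null array at 48 h. Without the p53-Dnmt1-null array at 24 h it was -0.16 in Cdkn1a and 0.08 in Cdkn2c. In Ccnd2 1416123_at it was 0.01 with quantile normalization and 0.08 without the p53-Dnmt1-null array at 48 h. Without the p53-Dnmt1-null or the p53-null array at 48 h it was -0.11 or -0.07 in Ccnd2 1416124_at and -0.27 or -0.10 in Ccne2. After removal minus TSA was -0.22 in Ccnd1 1417420_at without the 24 h array, and 0.12 in Cdkn2c, 0.11 in Ccnd2 1416122_at and -0.05 in Ccnd2 1416123_at without the 48 h array. The causes were not tested. Over all probe sets, genotype calls were 2464 higher and 2701 lower, and 1323 and 1578 without the 48 h arrays. Averaged TSA calls were 2 and 0, and 122 and 105 without the 24 h arrays, 64 and 44 without the 48 h arrays, 23 and 6 without the p53-Dnmt1-null array at 24 h, and 0 with no filter or no trend. After-removal calls against TSA were 907 and 1069, and 0 with no filter and 166 and 252 without the p53-Dnmt1-null array at 24 h. Leaving out both 24 h or both 48 h arrays left no residual degrees of freedom for TSA within a genotype, the difference of TSA effects and the comparisons after removal. No paired analysis was possible because the labels carry no replicate numbers, apart from the matching of arrays by time that the genotype model already makes.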

Other observations

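Over the 7 arrays the log2 signals of Cdkn2a and Cdkn2b had a Pearson r of 0.96, the highest of any pair of the 10 genes with 1 probe set a gene. The genes most like Cdkn2a were Bmp4 (r = 0.991), Os9 (0.990) and Aplp2 (0.989), and those most like Cdkn2b were Slc2a3 (0.987), Rreb1 (0.984) and Chmp4b (0.982). For Cdkn1a they were Rhbdd2 (0.977), Timm17b (0.966) and the immediate early gene Egr1 (0.964). Ccne2 was most like Ncaph (0.988), Brca1 (0.986) and Ect2 (0.984), genes of chromosome condensation, DNA repair and cytokinesis. Its r with Cdkn1a was -0.869 and with Cdkn2a -0.798. Ccne2 passed the filter only through its after-removal array and had signals of 46.4 or less, so its r values give no support to a link. Ccnd2 was most like the cadherin gene Cdh2 (0.987), Aida (0.982) and Fstl1 (0.981), and Ccnd1 was most like Lipg (0.998), Camk2g (0.991) and Uvrag (0.987). These are descriptions over 7 arrays that share genotype and treatment. The arrays fall into the 2 genotypes, which alone gives many genes a high r.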
